A study of Mus musculus with 6 samples.

Results

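The 10 genes described here are the EGR zinc-finger factors Egr1, Egr2 and Egr3, the IER genes Ier2, Ier3 and Ier5, the orphan nuclear receptor gene Nr4a1, the Krüppel-like factor genes Klf4 and Klf6, and Srf itself. They were picked by symbol, 10 of the 24346 symbols with a value in each library. The choice was made with results of these libraries known and by no stated cut-off, so their differences between groups are given as a description, with no p-value for any of them.

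Immediate early genes are transcribed within minutes of a growth factor, cytokine or stress signal and need no newly made protein for it. Many of them carry sites for the serum response factor SRF, which acts with ELK partners that the kinase ERK phosphorylates or with MRTF partners that follow the state of actin, and sites for CREB. Their products are mostly transcription factors and short-lived regulators that set the later response, and in carcinoma cells they are widely used as a readout of ERK signalling.

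The values come from mRNA sequencing of 4T1, a mouse mammary carcinoma cell line. The groups were cells with the short hairpin shRNA3 and cells with the hairpin shRNA1, both against the long noncoding RNA AU021063, and mock-transfected cells labelled WT, with 2 libraries each. No culture with a non-targeting hairpin is named in the labels, and the labels do not say that the 2 libraries come from different cultures, so p-values measure only how far these libraries differ, possibly for technical reasons. The series title puts AU021063 upstream of the Mek/Erk pathway, and the comparisons ask what the early genes did in cells with hairpins against it.

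All levels are in FPKM, which scales fragments by transcript length and library size so that levels can be compared between genes, and group values are means ± SD of n = 2 libraries. Differences are on the log2(FPKM + 1) scale with the SE of limma, a linear model fitted to the 11079 genes that averaged 1 FPKM or more, and a gene was called when its Benjamini-Hochberg adjusted p was under 0.05. That scale understates the change of low genes, so folds are ratios of group means in FPKM. An exact permutation test of 2 against 2 libraries cannot go below p = 0.333. The steps between low values put the depth at about 14100000 to 17100000 mapped fragments per library, so that 1 FPKM on a transcript of 3000 bases stood for 39.4 to 47.9 fragments. The target AU021063 was at 0.785 and 0 FPKM in the shRNA3 libraries, 1.04 and 0.572 in those of shRNA1, and 1.82 and 1.67 in WT. Those values rested on 5 and 0 fragments with shRNA3, 6 and 3 with shRNA1 and 11 and 10 in WT, and a count of 0 allows up to 3 fragments, or 0.555 FPKM. Where fragments were found, counting errors were 30.2% to 57.7%. AU021063 averaged 0.983 FPKM over the 6 libraries, so its difference between groups was not tested. A330009N23Rik overlaps it on the other strand, and with the strand setting unknown their reads cannot be told apart. A330009N23Rik was at 0.549 and 0.185 FPKM in the shRNA3 libraries, 0.716 and 0.663 in those of shRNA1, and 0.653 and 0.727 in WT. Of the epithelial markers Krt8, Krt18, Epcam, Cdh1, Krt7 and Cldn7, 5 of 6 averaged at least 1 FPKM, and their sum was 734 to 737 FPKM with shRNA3, 1020 to 1090 with shRNA1 and 929 to 962 in WT. That sum was mostly Krt8 and Krt18, at 0.618 and 0.907 times WT with shRNA3. Krt7 was at 0.864 times WT with shRNA3. Epcam and Cdh1, both low, went the other way with shRNA3, at 1.55 and 1.29 times WT. The leukocyte markers Ptprc, Cd3e and Itgam were listed at 0 in all 6 libraries. Cd68, a lysosomal glycoprotein gene and the only leukocyte marker given here that averaged at least 1 FPKM, was at 28.1 and 27.5 FPKM with shRNA3, 18.5 and 16.0 with shRNA1 and 6.50 and 6.69 in WT, and the part of these marker differences in the results was not tested. The summed fibroblast list of 6 markers was at 59.7 to 63.7 FPKM with shRNA3, 61.3 to 62.0 with shRNA1 and 70.0 to 70.8 in WT. It was mostly Pdgfra and Pdgfrb, at 0.778 and 1.05 times WT with shRNA3 and 0.839 and 0.92 times with shRNA1. Col1a1, at 0.732 FPKM in WT, stood at 2.71 times WT with shRNA3 and 2.05 times with shRNA1. Col3a1 and Thy1 were at 0. The endothelial list summed to under 0.3 FPKM in every library.

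The promoters of 7 of the 10 genes were found in the RefSeq table, build GRCm38.p6, the same assembly as the mm10 of the submitters' notes, as windows of 250 bases before to 50 bases after a start site. Egr1, Egr3 and Ier2 had no entry. The following 4 are shown because they belong to genes that differed in unlike ways between the groups. Egr2 was low with shRNA3 and Ier3 was highest with shRNA1. Srf was highest with shRNA3, and Nr4a1 differed little. Capitals mark the CArG box, the core of an SRF site, in Egr2 and Srf, the letters TGACG, the core of the CREB element (CGTCA where it lies on the other strand), in Egr2 and Nr4a1, and the GC box GGGCGG in Ier3.
Egr2 (chr10:67537619-67537918, plus strand): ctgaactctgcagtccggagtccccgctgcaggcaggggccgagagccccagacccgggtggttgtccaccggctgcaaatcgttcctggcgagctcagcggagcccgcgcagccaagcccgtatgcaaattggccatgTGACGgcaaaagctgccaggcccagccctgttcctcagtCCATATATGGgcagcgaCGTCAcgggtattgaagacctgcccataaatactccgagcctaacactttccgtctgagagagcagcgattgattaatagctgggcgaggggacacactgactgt
Ier3 (chr17:35821463-35821762, plus strand): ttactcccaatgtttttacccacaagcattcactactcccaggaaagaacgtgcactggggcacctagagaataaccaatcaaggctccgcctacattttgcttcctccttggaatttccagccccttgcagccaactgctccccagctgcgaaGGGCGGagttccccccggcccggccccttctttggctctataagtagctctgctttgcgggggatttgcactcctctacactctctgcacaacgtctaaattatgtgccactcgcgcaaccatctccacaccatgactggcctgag
Srf (chr17:46556113-46556412, minus strand): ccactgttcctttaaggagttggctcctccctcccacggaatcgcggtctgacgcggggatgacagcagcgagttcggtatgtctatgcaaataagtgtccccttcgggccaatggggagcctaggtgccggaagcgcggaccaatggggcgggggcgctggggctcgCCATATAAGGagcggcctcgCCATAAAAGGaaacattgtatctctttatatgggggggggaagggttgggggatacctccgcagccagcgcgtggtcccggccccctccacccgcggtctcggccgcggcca
Nr4a1 (chr15:101266596-101266895, plus strand): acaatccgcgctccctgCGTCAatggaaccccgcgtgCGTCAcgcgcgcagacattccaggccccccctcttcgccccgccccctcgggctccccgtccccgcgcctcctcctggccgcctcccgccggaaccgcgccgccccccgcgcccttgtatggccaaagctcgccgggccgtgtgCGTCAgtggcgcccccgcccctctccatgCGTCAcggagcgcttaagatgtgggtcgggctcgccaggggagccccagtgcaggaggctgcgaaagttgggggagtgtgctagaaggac

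A CArG box was found in windows of 2 of the 7 genes, Egr2 and Srf, and in 1.63% of all 32851 windows of the table. Srf had 2 of them, whose first bases lay 82 and 62 bases before its start site. Egr2 has 5 listed windows, of which 3 overlap and share a CArG box, and in all 4 held one. In the window shown it lay 72 bases before the start, between TGACG matches at 111 and 55 bases. TGACG on either strand was found for 4 of the 7 genes (Egr2, Nr4a1, Klf4 and Srf) and in 20.8% of all windows, with 4 matches in the Nr4a1 window. The full CREB element TGACGTCA was in none of the 7, against 1.79% of all windows. The ETS core CCGGAA was found for Egr2, Nr4a1 and Srf (14.9% of all windows), and the EGR site GCGNGGGCG, with G or T at N, for Nr4a1, Klf4 and Srf (3.47%). TATAAA was found for Srf (13.6%). GGGCGG was found for all 7 genes, against 35.7% of all windows, and it overlaps the EGR site in Nr4a1, Klf4 and Srf. A gene was counted when any of its windows held the match, while the percentages are of single windows. For Egr2 the matches to CCGGAA and GGGCGG lie in windows other than the one shown. A match says only that these letters are in the window.

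**Figure D1:**
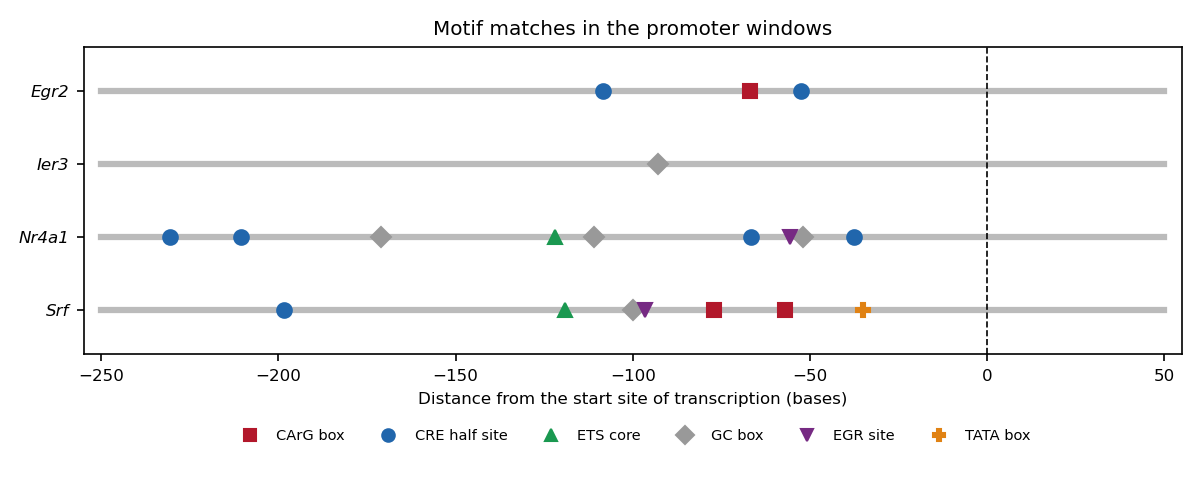
Positions of motif matches in the promoter windows of Egr2, Ier3, Nr4a1 and Srf, in bases from the start site of transcription (dashed line), with 1 symbol for the middle of each match on either strand and circles for TGACG. Srf shows 2 CArG boxes, with first bases 82 and 62 before its start, and Egr2 shows 1 with its first base at 72, while the windows of Ier3 and Nr4a1 show none.

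The genes were short, as is known for this class. Their median span in GENCODE release M21 was 5368 bases, against 23940 bases for the 10330 protein-coding genes tested, and the longest coding transcript had a median of 2 exons against 9. A span under 10000 bases was found for 9 of the 10 members and for 23.6% of those genes, the exception being Nr4a1 with 20527 bases. Srf is overlapped by other annotated genes, of which a microRNA gene has values here.

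At the baseline of WT cells the levels spread widely. Ier3 was the most abundant at 221 FPKM, followed by Klf6 at 37.6, Ier5 at 31.5, Ier2 at 22.6, Klf4 at 20.8, Srf at 16.4 and Nr4a1 at 14.7 FPKM. The EGR genes were the lowest, with Egr2 at 4.2, Egr1 at 1.72 and Egr3 at 0.527 FPKM. No neighbours in this order overlapped between their WT libraries. With shRNA3 the order had Srf in place 4 and Ier2 in place 7, and no neighbours overlapped. With shRNA1, Ier2 took place 2 at 59.4 FPKM and Egr1 place 7 at 15.9 FPKM. There Srf and Klf4 overlapped, as did Egr1 and Nr4a1.

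**Figure D2:**
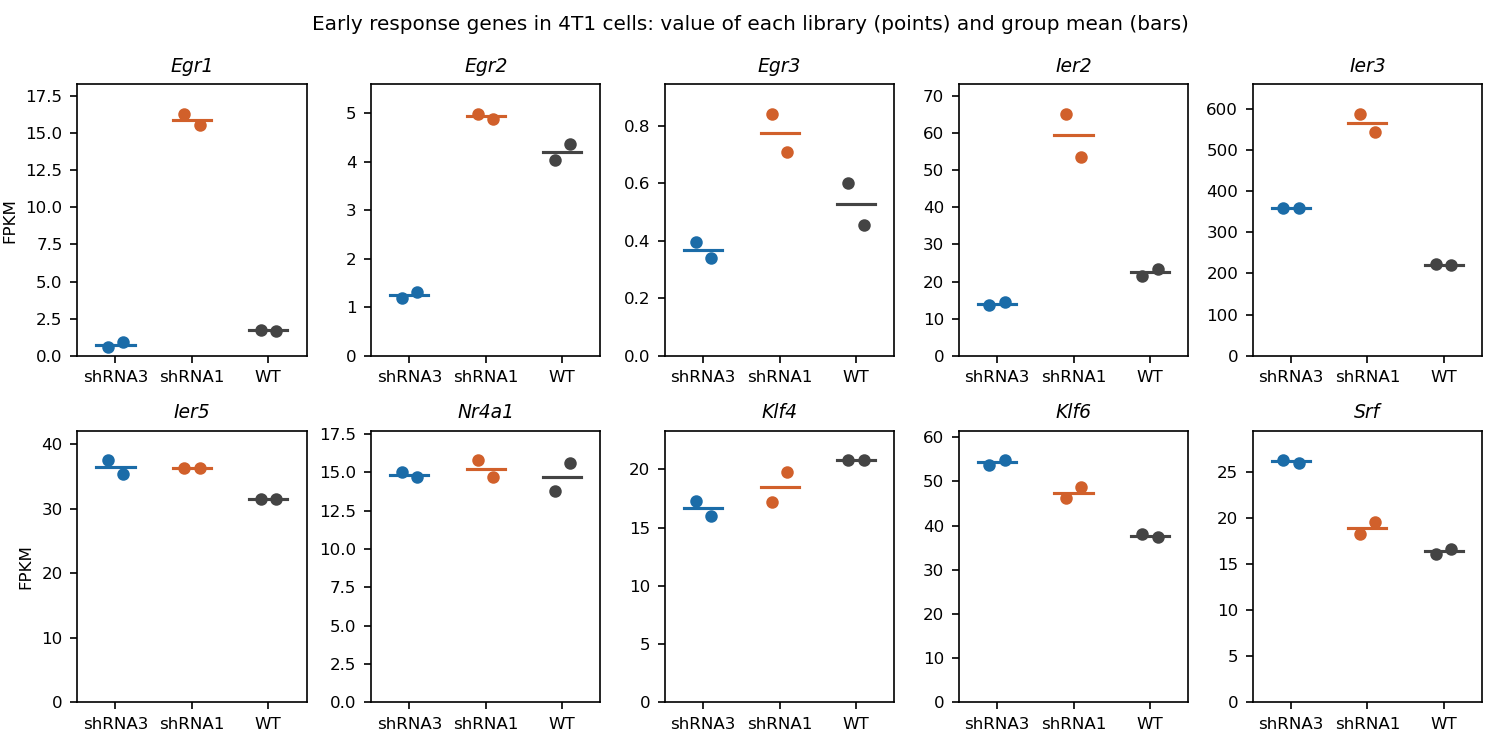
Level of each of the 10 genes in FPKM (vertical axes, each starting at 0) in the 2 libraries of shRNA3, shRNA1 and WT cells, with a bar at the group mean. Egr1 and Ier2 stand high with shRNA1 and low with shRNA3, Srf and Klf6 stand highest with shRNA3, and the libraries of Nr4a1 overlap in every pair of groups.

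Over the list, 9 of the 10 genes passed the filter at a mean of 1 FPKM. With shRNA3, 4 of the 9 were called higher than WT (Ier3, Ier5, Klf6 and Srf) and 4 lower (Egr1, Egr2, Ier2 and Klf4), where 27.4% of all genes tested were called higher and 27.8% lower, 55.2% in all. The call of Ier5 was lost without shRNA3 replicate 1 and that of Klf4 without shRNA3 replicate 2. With shRNA1, 6 of the 9 were called higher (Egr1, Ier2, Ier3, Ier5, Klf6 and Srf) and 0 lower, where 17.6% were called higher and 18.4% lower, 36.0% in all. Single libraries left out gave 4 to 6 calls there, since Ier5 was not called without either WT or either shRNA1 library, nor Srf without either WT library or shRNA1 replicate 2. Neither was called after scaling the libraries to one sum. Klf4 was called lower with shRNA1 after that scaling and without shRNA1 replicate 2, which gave 4 higher and 1 lower in each case, and its value lay between -0.26 and -0.07 over the alternatives. For shRNA3 against shRNA1, 2 were called higher (Klf6 and Srf) and 4 lower (Egr1, Egr2, Ier2 and Ier3), where 22.0% and 20.5% of all genes were, 42.5% in all, and Klf6 was not called without shRNA1 replicate 1 or shRNA3 replicate 2. Without shRNA1 replicate 1, Klf4 was called lower with shRNA3 than with shRNA1. The median log2 difference of the 9 was 0.02 for shRNA3 and 0.20 for shRNA1 against WT, each beside -0.01 for all genes, and -0.14 between the hairpins beside 0.01.

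Library by library, 4 of the 10 genes had both shRNA3 libraries above both WT libraries and 5 had both below, where 38.6% and 40.1% of all genes tested did, 78.7% in all. For shRNA1 against WT the numbers were 7 above and 1 below, with 32.2% and 36.8% of all genes, 69.0% in all, and Egr3 was above. For shRNA3 against shRNA1 they were 2 above and 4 below, with 37.4% and 35.8%, 73.2% in all, and Egr3 was below. Libraries of shRNA3 below and of shRNA1 above WT were found for Egr1, Egr2, Ier2 and the untested Egr3, and for 4.61% of all genes tested. Calls in both those directions were found for Egr1 and Ier2 and for 1.07% of all genes. As the genes were chosen with such values known, nothing is read from these counts, and both comparisons against WT share the WT libraries.

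Egr1 was, of the 10 genes, the one with the widest gap between the hairpins. Egr1 (chromosome 18, 34859823 to 34864984, plus strand) is the best known member of the family and a direct target of SRF with ELK partners. It was at 0.567 and 0.954 FPKM in the shRNA3 libraries, 16.3 and 15.5 in those of shRNA1, and 1.77 and 1.66 in WT. Both shRNA3 libraries stood below WT and both shRNA1 libraries above it, with no overlap between any groups. The mean with shRNA3 (0.760 ± 0.274 FPKM) was 0.443 times that in WT (1.72 ± 0.0771 FPKM), and the mean with shRNA1 (15.9 ± 0.559 FPKM) was 9.27 times it. The log2 difference from WT was -0.63 ± 0.12 (SE) for shRNA3 and 2.64 ± 0.12 for shRNA1. Between the hairpins it was -3.27 ± 0.12 for shRNA3 against shRNA1, and only 8 of the 11079 genes differed more. In bulk RNA, a smaller share of cells with the transcript and less transcript per cell cannot be told apart.

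In units of 1 fragment the low values of Egr1 came out whole within 0.05, which gave 28 and 40 fragments with shRNA3, about 726 and 631 with shRNA1 and 83 and 77 in WT. Those steps imply a transcript of 3089 bases. The shRNA3 libraries differed from each other by 50.9%, the widest gap of any tested member within a group, at counting errors of 18.9% and 15.8%. Fragments copied from 1 molecule cannot be recognised, so these errors cover counting alone.

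Egr2 (chromosome 10, 67535475 to 67542188, plus strand), which in the nervous system drives myelination by Schwann cells, was at 1.2 and 1.31 FPKM in the shRNA3 libraries, 4.99 and 4.88 in those of shRNA1, and 4.04 and 4.37 in WT. The shRNA3 libraries stood far below the rest, and the shRNA1 libraries narrowly above WT. The numbers behind these values were 57 and 53 fragments with shRNA3, 214 and 191 with shRNA1 and 182 and 195 in WT. The mean with shRNA3 was 0.299 times that in WT (log2 difference -1.21 ± 0.09), and the mean with shRNA1 1.17 times it (0.19 ± 0.09). Unlike Egr1, this gene differed more between shRNA3 and WT than between shRNA1 and WT.

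Egr3 (chromosome 14, 70077203 to 70082614, plus strand), a family member that T cell receptor signals induce in lymphocytes, was the lowest of the 10 and averaged under 1 FPKM, so it was not tested. It was at 0.395 and 0.342 FPKM in the shRNA3 libraries, 0.843 and 0.711 in those of shRNA1, and 0.600 and 0.455 in WT. The groups did not overlap, and their order was that of Egr1 and Egr2, with shRNA1 on top and shRNA3 at the bottom. The fourth member of the family, Egr4, was listed at 0 in all 6 libraries.

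Among the IER genes, Ier2 (chromosome 8, 84661331 to 84662852, minus strand), an intronless nuclear regulator gene, shared the order of the EGR genes. It was at 13.8 and 14.4 FPKM in the shRNA3 libraries, 65.2 and 53.6 in those of shRNA1, and 21.6 and 23.5 in WT. Again the libraries of shRNA3 lay below WT and those of shRNA1 above. The mean was 14.1 ± 0.452 FPKM with shRNA3, 59.4 ± 8.17 FPKM with shRNA1 and 22.6 ± 1.38 FPKM in WT, or 0.626 times WT for shRNA3 and 2.63 times WT for shRNA1. The log2 differences from WT were -0.64 ± 0.09 for shRNA3 and 1.35 ± 0.09 for shRNA1.

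Ier3 (chromosome 17, 35821684 to 35822923, plus strand), whose product IEX-1 modulates ERK signalling and apoptosis, was the most abundant of the 10 in all 3 groups. It was at 360 FPKM in both shRNA3 libraries, 588 and 543 in those of shRNA1, and 222 and 220 in WT. Both hairpins stood above WT, shRNA3 at 1.63 times its mean (log2 difference 0.70 ± 0.05) and shRNA1 at 2.56 times (1.35 ± 0.05). The difference between the hairpins was -0.65 ± 0.05 for shRNA3 against shRNA1.

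Ier5 (chromosome 1, 155096361 to 155099636, minus strand), a relative of Ier2 that in human cells acts with the heat shock factor HSF1, varied little. It was at 37.5 and 35.4 FPKM in the shRNA3 libraries, 36.3 and 36.2 in those of shRNA1, and 31.5 in both WT libraries. Both hairpins stood above WT by a log2 difference of 0.20 ± 0.05, and they overlapped with each other.

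Nr4a1 (chromosome 15, 101254269 to 101274795, plus strand), the gene of NUR77, is also the early gene next to the locus that was targeted. Its GENCODE gene start lies 32114 bases beyond the end of AU021063 (101221247 to 101222155) on the same strand, with 1 gene that has values in the files between them. The RefSeq start site of the promoter window shown above lies further from AU021063, within bases 101266596 to 101266895. Nr4a1 was at 15 and 14.7 FPKM in the shRNA3 libraries, 15.8 and 14.7 in those of shRNA1, and 13.8 and 15.6 in WT. The libraries overlapped in all 3 comparisons. The log2 difference from WT was 0.02 ± 0.07 for shRNA3 and 0.05 ± 0.07 for shRNA1, the smallest of the tested members against WT with either hairpin. The gene in between, singled out for its place, is Grasp.

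Of the KLF genes, Klf6 (chromosome 13, 5861482 to 5870394, plus strand), a zinc-finger factor induced by growth factors and injury, was at 53.8 and 54.8 FPKM in the shRNA3 libraries, 46.2 and 48.6 in those of shRNA1, and 38.0 and 37.3 in WT. The groups did not overlap, with WT lowest. The log2 difference from WT was 0.52 ± 0.05 for shRNA3 and 0.32 ± 0.05 for shRNA1. Klf4 (chromosome 4, 55527143 to 55532466, minus strand), a factor of epithelial differentiation and of reprogramming to pluripotency, was at 17.3 and 16.0 FPKM in the shRNA3 libraries, 17.2 and 19.8 in those of shRNA1, and 20.8 in both WT libraries. It was the only one of the 10 with all libraries of both hairpins below WT, by -0.31 ± 0.07 for shRNA3 and -0.17 ± 0.07 for shRNA1, while the hairpins overlapped with each other.

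Srf (chromosome 17, 46548329 to 46556175, minus strand), the factor that drives many early genes and its own promoter, was at 26.3 and 26.0 FPKM in the shRNA3 libraries, 18.3 and 19.6 in those of shRNA1, and 16.1 and 16.7 in WT. Its order was the reverse of that of the EGR genes between the hairpins, with shRNA3 highest. The mean was 1.60 times WT with shRNA3 (log2 difference 0.64 ± 0.06) and 1.16 times WT with shRNA1 (0.20 ± 0.06). The difference of shRNA3 against shRNA1 was 0.45 ± 0.06.

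**Figure D3:**
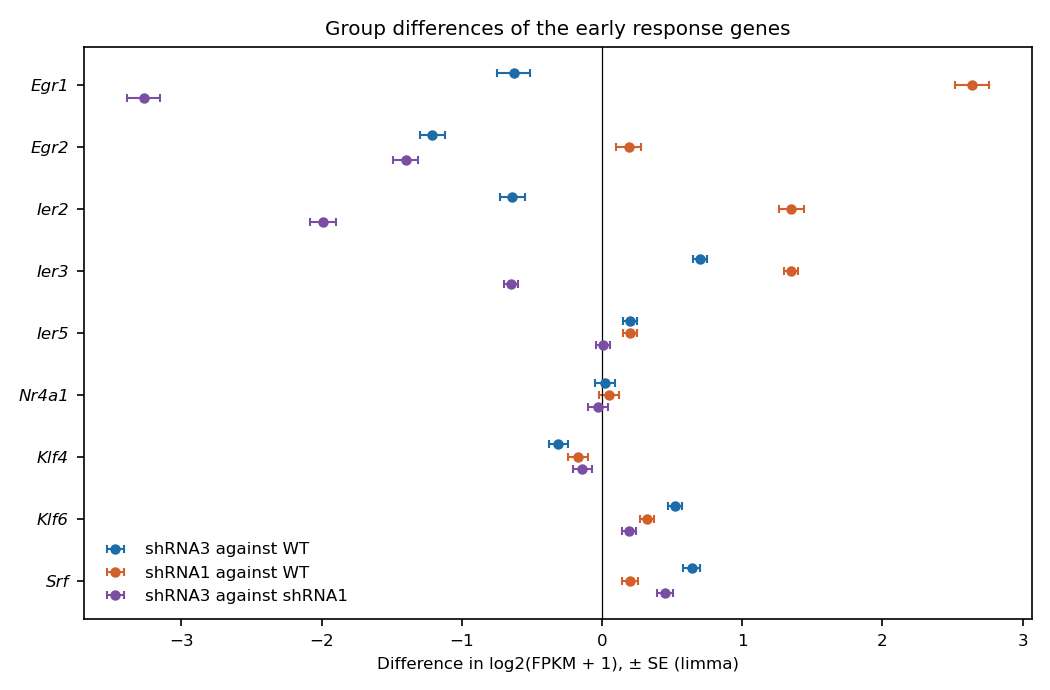
Differences in log2(FPKM + 1) with SE (limma) for the 9 genes that averaged 1 FPKM or more, for shRNA3 against WT, shRNA1 against WT and shRNA3 against shRNA1. Egr1 and Ier2 lie on opposite sides of 0 for the 2 hairpins against WT, Ier3, Ier5, Klf6 and Srf lie above 0 for both, and Nr4a1 lies near 0 in all 3.

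Likeness to other genes was measured as the root mean square difference of the centred log2(FPKM + 1) values over the 6 libraries. The gene most like Egr1 was another of the 10, Ier2, at 0.61, and then Stfa3 at 0.71 and Areg, the gene of the EGF receptor ligand amphiregulin, at 0.76. Areg averaged 6.10 FPKM with shRNA3, 18.7 FPKM with shRNA1 and 6.85 FPKM in WT. The group means of Egr1 itself spanned 3.27. Ier2 was most like Mt1, a metallothionein gene, at 0.20, followed by Tmem51 at 0.27 and the transcript Emc8-1190005i06rik at 0.29. Egr2 was most like Mmp3, the gene of stromelysin 1, at 0.08, with Id1, an inhibitor of helix-loop-helix factors, at 0.09 and Hes1, a target of Notch, at 0.10. Mmp3 averaged 51.1 FPKM with shRNA3, 142 FPKM with shRNA1 and 123 FPKM in WT. Ier3 was most like Tnr at 0.04, Bmp5 at 0.06 and Bnip3, a mitophagy receptor gene that hypoxia induces, at 0.10. Klf6 was most like Umad1 at 0.01, with Dstn and Top2a at 0.02. Srf was most like Arvcf, Klf10 and Rilpl2, all at 0.03.

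Of 19 other genes of these families, 11 reached the filter and were tested. With shRNA3 5 rose and 1, Klf9, fell, where 55.2% of all genes were called. With shRNA1 4 rose and 2, Klf3 and Klf11, fell, where 36.0% of all genes were called. The 2 falls with shRNA1 were both lost with the replicate block, with limma without the trend, without WT replicate 1, without shRNA1 replicate 2 and without either shRNA3 library. The median log2 difference was 0.14 for each hairpin against WT, beside -0.01 for all genes. Genes given with a p-value from this list and the following ones were picked for passing the threshold and for the size of their change. The lists themselves were chosen with earlier results of these data known, so these p-values are given as a description. Klf2, a factor known from quiescent endothelium and T cells, was at 7.04 and 6.51 FPKM in the shRNA3 libraries, 6.81 and 5.49 in those of shRNA1, and 2.78 and 2.46 in WT. It rose by 1.10 ± 0.11 with shRNA3 (limma adjusted p = 9.96e-05) and by 0.98 ± 0.11 with shRNA1 (limma adjusted p = 0.000358). Klf10, an early gene of TGF-beta, was at 50.6 and 52.4 FPKM in the shRNA3 libraries, 36.7 and 38.8 in those of shRNA1, and 33.6 and 32.7 in WT, and rose by 0.62 ± 0.05 with shRNA3 (limma adjusted p = 4.05e-05) and by 0.18 ± 0.05 with shRNA1 (0.0227). The call of Klf10 with shRNA1 was lost without either WT library or shRNA1 replicate 2, and after scaling the libraries to one sum. Klf7 rose by 0.59 ± 0.10 with shRNA3 (limma adjusted p = 0.00162) and by 0.49 ± 0.10 with shRNA1 (0.00755), and without shRNA1 replicate 1 its call with shRNA1 ended. Klf11 stood higher with shRNA3 (0.24 ± 0.08, limma adjusted p = 0.0279) and lower with shRNA1 (-0.24 ± 0.08, 0.0444), and both calls ended under several settings, among them leaving out either shRNA1 library for shRNA1 and either shRNA3 library for shRNA3. The difference between the hairpins itself passed the test for Klf11 (0.48 ± 0.08, limma adjusted p = 0.00207). Without WT replicate 1, the relatives called with shRNA1 were 3 rises and 0 falls. Nr4a2, a sister gene of Nr4a1, averaged 2.28 ± 0.201 FPKM with shRNA3, 2.25 ± 0.166 with shRNA1 and 1.95 ± 0.0926 in WT, and Nr4a3 stayed under 0.07 FPKM in each library.

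Of 50 tested members of a list of 54 other early response genes, 30 rose and 9 fell with shRNA3 (median 0.32), where 27.4% of all genes were called higher and 27.8% lower. With shRNA1 36 rose and 5 fell (median 0.43), where 17.6% of all genes were called higher and 18.4% lower, and the median of all genes was -0.01 in both comparisons. For shRNA3 against shRNA1, 15 were higher and 21 lower (median -0.03), where 22.0% of all genes were called higher and 20.5% lower (median 0.01). Fos, the AP-1 subunit gene that SRF controls as it does Egr1, was at 5.54 and 6.46 FPKM in the shRNA3 libraries, 15.9 and 16.9 in those of shRNA1, and 3.25 and 2.89 in WT. Fos rose with both hairpins, by 0.78 ± 0.09 for shRNA3 (limma adjusted p = 0.000214) and by 2.10 ± 0.09 for shRNA1 (3.13e-06), and was lower with shRNA3 than with shRNA1 (-1.32 ± 0.09, 4.23e-05). Zfp36, whose product tristetraprolin speeds the decay of AU-rich mRNAs, was at 22.4 and 24.0 FPKM in the shRNA3 libraries, 39.7 and 34.7 in those of shRNA1, and 11.0 and 10.3 in WT. Zfp36 had the order of Fos, with -0.66 ± 0.07 for shRNA3 against shRNA1 (limma adjusted p = 0.000421). Cyr61 and Gadd45b, early genes tied to YAP and to stress, also stood above WT with both hairpins. Cyr61 was at 5.88 times WT with shRNA3 and 3.42 times with shRNA1, and Gadd45b at 9.47 and 3.33 times. Between the hairpins they ran the other way from Fos and Zfp36. They were higher with shRNA3 than with shRNA1 by 0.78 ± 0.04 and 1.45 ± 0.08 (limma adjusted p = 1.78e-05 and 2.26e-05).

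**Figure D4:**
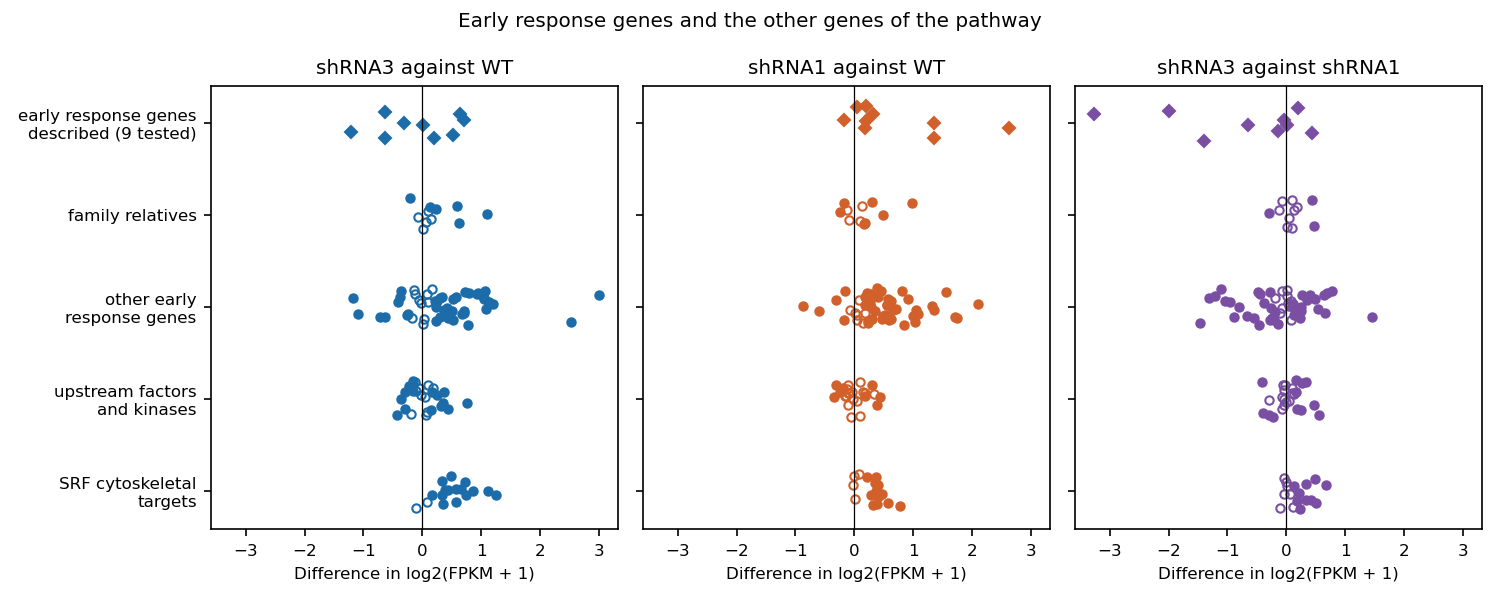
Differences in log2(FPKM + 1) for shRNA3 against WT, shRNA1 against WT and shRNA3 against shRNA1, with 1 symbol per tested gene: diamonds are 9 of the 10 genes described, filled circles are genes of the other lists past the limma threshold and open circles are those that were not. The SRF cytoskeletal targets past the threshold all lie above 0 in each comparison as drawn (1 was called lower with shRNA3 under 3 alternatives), while the diamonds spread to both sides, out to -3.27 for Egr1 between the hairpins.

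Of 17 tested genes in a list of 24 cytoskeletal and contractile targets of SRF and its MRTF partners, 15 rose and 0 fell with shRNA3 (median 0.50), where 27.4% of all genes were called higher. With shRNA1 13 rose and 0 fell (median 0.38), where 17.6% of all genes were called higher, and 10 were higher and 0 lower with shRNA3 than with shRNA1 (median 0.19), where 22.0% were called higher. For shRNA3 against WT 1 gene was called lower after scaling the libraries to one sum (14 higher), with quantile normalization (15 higher) and without shRNA3 replicate 2 (15 higher). Without shRNA3 replicate 2 there were also 9 higher and 1 lower between the hairpins. Ankrd1, a muscle ankyrin-repeat gene, was at 214 and 202 FPKM in the shRNA3 libraries, 126 and 134 in those of shRNA1, and 87.9 and 85.2 in WT. Vcl, the gene of vinculin, was at 85.0 and 89.6 FPKM in the shRNA3 libraries, 67.9 and 69.6 in those of shRNA1, and 40.7 and 38.2 in WT. Ankrd1 and Vcl were higher with shRNA3 than with shRNA1 by 0.67 ± 0.05 and 0.34 ± 0.05 (limma adjusted p = 5.86e-05 and 0.00142). Cnn2 (calponin 2) and Lima1 (EPLIN) had the same order, with 0.49 ± 0.05 and 0.33 ± 0.04 between the hairpins (limma adjusted p = 0.000251 and 0.000773).

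Of 25 tested genes among 27 SRF partners, kinases, CREB and MEF2 factors and EGR corepressors, which act upstream of the early genes or on their products, 8 rose and 7 fell with shRNA3 (median 0.04), where 55.2% of all genes were called. With shRNA1 4 rose and 4 fell (median -0.06), where 36.0% of all genes were called, and 8 were higher and 4 lower with shRNA3 than with shRNA1, where 42.5% were. The split between rises and falls moved with the setting: for shRNA3 it was 7 and 3 without shRNA3 replicate 1 and 5 and 9 after scaling the libraries to one sum. For shRNA1 it was 3 and 1 without WT replicate 1 and 5 and 1 without shRNA1 replicate 2. Ets1 rose by 0.76 ± 0.05 with shRNA3 (limma adjusted p = 1.31e-05) and by 0.43 ± 0.05 with shRNA1 (0.000376). Mapk3 (ERK1) rose by 0.43 ± 0.04 with shRNA3 (limma adjusted p = 0.000126) and by 0.19 ± 0.04 with shRNA1 (0.013), where its call was lost without WT replicate 1 or shRNA1 replicate 1 and with quantile normalization. Map2k1 (MEK1) rose by 0.35 ± 0.05 with shRNA3 (limma adjusted p = 0.000657) and by 0.39 ± 0.05 with shRNA1 (0.000793). Rps6ka2, a kinase of the RSK family downstream of ERK, differed by -0.37 ± 0.07 with shRNA3 (limma adjusted p = 0.00237) and by -0.34 ± 0.07 with shRNA1 (0.00656). The corepressors Nab1 and Nab2, which bind EGR proteins and were singled out after their values were seen, were called lower with shRNA3 than in WT and than with shRNA1. The messenger levels of these kinases do not show their phosphorylation, which the files do not cover.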

How the data were processed

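Groups were taken from the sample titles. For each library the authors deposited symbols with 1 value each, taken to be FPKM because Cufflinks 2.2.1 is named in the submitters' processing notes and the values are fractional with unequal totals. Beside it stand SAMtools 0.1.19, Bowtie2 2.2.3, TopHat2 2.0.13 and mm10, with no roles. Annotation and strand setting were not given in the sources used here.

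Values were transformed to log2(FPKM + 1), those averaging 1 FPKM or more were kept, and limma 3.58.1 under R 4.3.3 fitted 3 group means to the 6 libraries, with trended prior variance, 3 residual and 4.96 prior degrees of freedom, and two-sided tests. The fit was also run on data simulated with its own variances. As that simulation shares the assumptions of the model, it checks the code only and does not bear on whether the libraries are independent. Python 3.11.15 with pandas 2.3.3 and NumPy 2.4.6 was used for loading, motif searches and fragment numbers, which assume a fragment length of 200 bases. Members and lists were chosen with earlier results of these data known. Genes outside the 10 were named by rule: up to 4 of each list past the threshold with both hairpins, ranked by the larger change, and the 3 genes most like each tested member that spans at least 0.5 between group means. Relatives and neighbours given without a test (Egr4, Nr4a2, Nr4a3, Grasp, A330009N23Rik) and the list genes Klf3, Klf9, Nab1 and Nab2 are outside it and were named after their values were seen. Alternatives tried were a pseudocount of 0.1 or 0.5, filters at none or 5 FPKM, 3 other scalings, limma without the trend, a replicate block and each library left out. A marker of the leukocyte list is not reported here.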

Additional observations from a re-analysis of the deposited data

Results flagged for a closer look

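For 4 of the 10 early response genes every shRNA3 library lay below both WT libraries and every shRNA1 library above both, so that the 2 hairpins against AU021063 stood on opposite sides of WT, which is why they are given here. Among all 11079 genes tested 4.61% did so, a share that does not cover Egr3, which was not tested. The log2 difference of shRNA3 against shRNA1 was -3.27 for Egr1, -1.40 for Egr2 and -1.99 for Ier2. For Egr3, which was too low for the fit, the mean with shRNA3 was 0.474 times that with shRNA1. Egr1, Egr2 and Ier2 were past the limma threshold for this difference, and no p-value is given because the genes were chosen with these values known. Against WT, Egr1 and Ier2 were called with both hairpins, while Egr2 was called with shRNA3 but not with shRNA1 (0.19 ± 0.09). For Egr3 the difference between the hairpins was not tested with the filter as reported. Without a filter on low values Egr3 was called lower with shRNA3 than with shRNA1. Against WT it was then called with neither hairpin (log2 differences of -0.16 for shRNA3 and 0.22 for shRNA1).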

How the results depend on the processing

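No log2 difference of a tested member that was called, in any of the 3 comparisons, changed its direction under any of the 15 alternatives. Of the values of members under alternatives, 385 stayed on their side of the threshold, 13 lost the call and 4 gained it; the calls lost were of Ier5, Srf, Klf4 and Klf6, and those gained of Klf4 and Egr2. Egr1 was between 2.60 and 3.14 for shRNA1 against WT, between -1.11 and -0.48 for shRNA3 against WT and between -4.26 and -3.11 between the hairpins, where pseudocounts under 1 gave the larger sizes. Leaving out 1 library at a time, 4 to 6 members were called for shRNA1 against WT, 7 to 8 for shRNA3 against WT and 5 to 6 for shRNA3 against shRNA1, and 2604 to 3682, 4830 to 5992 and 3222 to 4592 of all genes; the lowest for shRNA1, 2604 against 3989 with all libraries, came without shRNA1 replicate 2. After scaling the libraries to one sum, 34.9% of the genes called for shRNA1 against WT and 37.6% of those for shRNA3 were higher, against 49.0% and 49.7% on the deposited values. Same-numbered libraries did not deviate together in every pair of groups (correlations of 0.0103, -0.0719 and 0.199), so the replicate number was not taken as a pairing; with it as a replicate block 3523, 5797 and 4308 genes were called in the 3 comparisons, and among the genes named in the text the calls of Klf3 and Klf11 with shRNA1 ended. The alternatives for the other lists were added after seeing the data. At this depth Egr1 rested on 28 and 40 fragments with shRNA3, with counting errors of 18.9% and 15.8%.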
